A study of Zea mays with 64 samples.

Results

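Leaves of maize family NE71, whose Mu-active father was plant ND66-2, were compared with leaves of families NE72, NE73 and NE74, whose Mu-active fathers were plants ND67-51, ND67-40 and ND67-35. The plants were chosen by tissue and by the name of the father. This gave 8 leaf libraries of the ND66 family and 22 of the ND67 families (7 of NE72, 7 of NE73 and 8 of NE74), which are 30 of the 64 libraries of the series. The numbers 66 and 67 are taken here as rows of fathers. The labels print them as part of each father's name and do not state what they stand for.

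All plants were of the W22 inbred background, and every family came from Mu-active pollen placed on an ear of a Mu-inactive W22 plant. Leaf tissue was taken from seedlings 10 to 13 days after sowing, and the fathers were represented by 1 endosperm library each. The DNA was broken into fragments of 1000 bp on average, ligated to an adapter and amplified by PCR next to Mu ends, a method called MuSeq. The deposited values are counts per insertion site, and CPM is a site's count per 1000000 counts of its library. Plants of a family share 1 father, so differences between plants of 2 families compare those families, and a comparison of the rows rests on 1 father against 3. The exact permutation test over 4 fathers cannot give a p below 0.25, so no difference between the rows could be called.

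Mu elements are cut-and-paste or replicating DNA transposons of maize, first known for the very high mutation rate of lines in which they are active. The autonomous element MuDR supplies the transposition proteins, and each new insertion duplicates a short stretch of the target, so its site is read as a short interval. An insertion that was in the father's germline reaches about as many progeny as any heterozygous allele, whereas an insertion made late in a growing leaf is carried by few of its cells. Sites with many counts in a leaf library therefore differ in kind from the many sites with 1 or a few counts.

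Summed counts per leaf library ran from 25037 to 687094 with a median of 243312. The NE71 libraries held 89145 to 251043 counts, the NE72 libraries 25037 to 687094, the NE73 libraries 38627 to 338457 and the NE74 libraries 225018 to 555843. A site was taken as present at 1000 or more CPM, which was at least 26 counts in the shallowest leaf library and at least 688 in the deepest. A count of 0 allows a level of up to 4.37 to 119.8 CPM, depending on the library (3 counts, counting error only). Carry-over between families was measured at insertions that the authors' deposited table lists for 1 family and no other. Leaves of the other families averaged between 0.325 and 1.61 CPM per such site, and the highest single value was 239.6 CPM. There 0 of these sites reached 1000 CPM. Choosing sites listed for 1 family favours that outcome, so it does not bound carry-over.

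The fathers were compared first, by the insertions they share. In the authors' deposited table the ND66 father carried 27 insertions besides the 29 listed for the Mu-inactive parent, against 64, 51 and 71 for the fathers of NE72, NE73 and NE74. By the authors' deposited table, the ND66 father shared 1 insertion with the NE72 father (3.70% of its 27 and 1.56% of the 64), 4 with the NE73 father (14.8% and 7.84% of the 51) and 2 with the NE74 father (7.41% and 2.82% of the 71). Pairs of ND67 fathers shared more in the authors' deposited table: NE72 and NE73 shared 12 (18.8% and 23.5%), NE72 and NE74 shared 11 (17.2% and 15.5%), and NE73 and NE74 shared 28 (54.9% and 39.4%). The mean number shared was 17 for a pair of ND67 fathers and 2.33 for the ND66 father with an ND67 father, a difference of 14.7 insertions. The same difference was between 14.3 and 14.7 when father sites were taken from the counts of the father libraries at 500, 1000 or 2000 CPM. The 6 pairs reuse the same 4 fathers, so no test was made.

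The sharing among the ND67 fathers was uneven. By the authors' deposited table, 9 insertions were listed for all 3 ND67 fathers and not for the ND66 father, and another 17 for the fathers of NE73 and NE74 alone, against 2 for NE72 with NE73 alone and 1 for NE72 with NE74 alone. Chromosome 3 held 13 of the 28 insertions shared by the NE73 and NE74 fathers, spread from position 973321 to 175324555. The other chromosomes held 0 to 5 each. Of the 13, 1 was also listed for the NE72 father and 1 for the ND66 father. Chromosome 3 also had the most insertions listed for any ND67 father, 25, against 8 to 21 on the others. The uneven spread was not tested. Of the 27 insertions of the ND66 father, 23 were listed for no other father in the authors' deposited table, as were 51 of NE72's, 19 of NE73's and 42 of NE74's.

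The leaves showed how each shared insertion was passed on. Positions below are those of the deposited site names. Their genome build is not given in the sources used here, so no gene or sequence is attached to them. Except for 1 unlisted site of 1810 bp described below, each named site spans 9 bp, the length at 1012 of the 1058 sites in the authors' deposited table.

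The authors' deposited table lists 4 insertions for the ND66 father together with at least 1 ND67 father. The insertion at chr6:90428447-90428455, listed for the fathers of NE71 and NE73, was present in 7 of 8 NE71 leaves at 8884 to 11028 CPM (mean 9948 ± 797, SD) and in 4 of 7 NE73 leaves at 8624 to 12486 CPM (mean 9901 ± 1759, SD). The 1 NE71 leaf without it (plant 8) and the 3 NE73 leaves without it had 0 counts there. The highest value at this site in a leaf of NE72 or NE74 was 3.86 CPM. Carriers in both families stood at similar levels. The limit for presence keeps carriers above other leaves by definition, but the gap was wide, from 3.86 CPM to 8624 CPM in the lowest carrier.

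A second insertion of the same pair of fathers, at chr6:99331360-99331368, was present in 7 of 8 NE71 leaves at 7796 to 10323 CPM (mean 8933 ± 991, SD) and in 6 of 7 NE73 leaves at 7903 to 9997 CPM (mean 9181 ± 970, SD). Leaves without it had at most 17.8 CPM in any family. The NE71 non-carrier was plant 3, so the non-carriers of these chromosome 6 insertions were different plants. These are the 2 sites listed for a father of each row that segregated in leaves of both rows.

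The insertion at chr9:11958559-11958567 was listed for all 4 fathers and not for the Mu-inactive parent in the authors' deposited table, and it was present in all 30 leaves. It averaged 4940 ± 629 CPM over the 8 NE71 leaves, 2950 ± 276 over the 7 NE72 leaves, 5139 ± 1232 over the 7 NE73 leaves and 3412 ± 893 over the 8 NE74 leaves (each ± SD). A site in every leaf does not separate the rows, and it was left out of the sharing index below.

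The fourth, at chr3:3350330-3350338, was listed for the fathers of NE71, NE73 and NE74. Its level in the ND66 father's library was 1069 CPM, against 10091 CPM in the NE73 father's and 10607 CPM in the NE74 father's. The median father-library level of the 27 insertions listed for the ND66 father was 13989 CPM and 1069 CPM was the lowest. All 8 NE71 leaves had 0 counts at the site, which allows levels of up to 12.0 to 33.7 CPM. It was present in 4 of 7 NE73 leaves (10122 to 13083 CPM) and in 3 of 8 NE74 leaves (7497 to 8408 CPM). It is the 1 of the 27 insertions listed for the ND66 father that had no carrier among the NE71 leaves; the other 26 had at least 1.

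The 9 insertions listed for all 3 ND67 fathers were chosen as not listed for the ND66 father. They were present in 0 of 8 NE71 leaves, where their summed count was 5. That absence follows from the choice of sites and is no separate result on the rows. In NE72 they were present in 26 of 63 combinations of site and leaf (41.3%), in NE73 in 32 of 63 (50.8%) and in NE74 in 29 of 72 (40.3%). Of these, the insertion at chr5:71090739-71090747 was present in 4 of 7 NE72 leaves (5744 ± 133.3 CPM, SD), in 1 of 7 NE73 leaves (10675 CPM) and in 6 of 8 NE74 leaves (5855 ± 690 CPM, SD). The insertion at chr8:76358663-76358671 was present in 5, 4 and 5 leaves of NE72, NE73 and NE74, at 1730 ± 427, 4870 ± 1475 and 2384 ± 214 CPM (SD). It lay lower than the chromosome 5 insertion in all 3 families.

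The 3 chromosome 7 insertions of this set behaved differently in NE74. They lie at chr7:25221853-25221861, chr7:44742681-44742689 and chr7:141317990-141317998. Their levels in the NE74 father's library were 8469, 8982 and 4846 CPM, yet all 8 NE74 leaves had 0 counts at each of them, which allows levels of up to 5.40 to 13.3 CPM per leaf. The same insertions were present together in NE73 plants 1, 3, 4, 8 and 9 (5 of 7 leaves each) and in 3, 4 and 3 of 7 NE72 leaves. The map of shared insertions by leaf shows these empty NE74 rows beside filled NE72 and NE73 rows.

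Among insertions of a single pair of ND67 fathers, chr6:159702285-159702293 was present in 4 of 7 NE72 and 2 of 7 NE73 leaves, and chr1:27124808-27124816 in 3 of 7 NE72 and 5 of 8 NE74 leaves. The NE73 and NE74 insertion at chr9:26189098-26189106 was present in 6 of 7 NE73 leaves (12251 ± 1989 CPM, SD) and 5 of 8 NE74 leaves (8222 ± 758 CPM, SD). The NE73 and NE74 insertion at chr7:176807341-176807349 was present in 5 of 7 and 4 of 8 leaves, at 12566 ± 1171 and 7809 ± 792 CPM (SD). None of these, which were chosen as not listed for the ND66 father, was at 1000 CPM in an NE71 leaf.

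**Figure D1:**
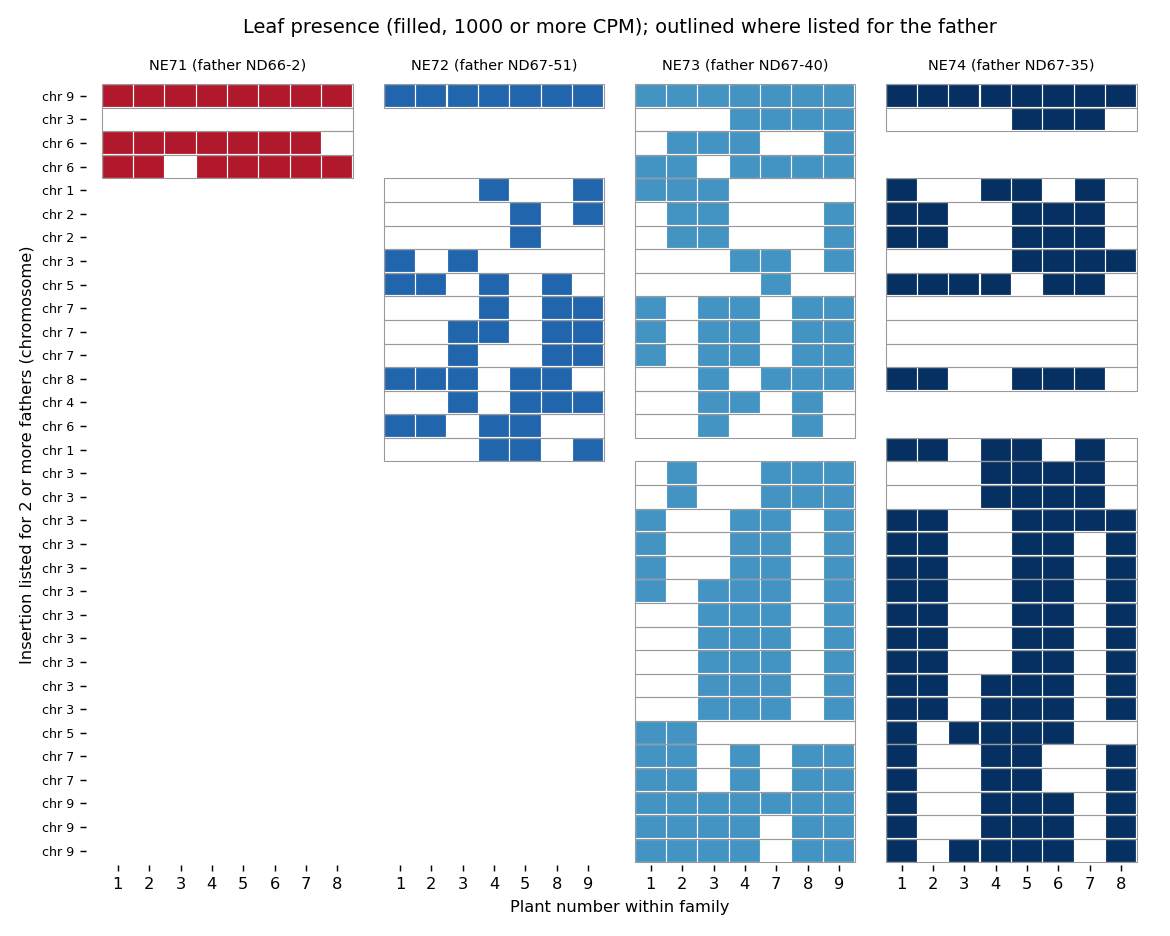
Presence at 1000 or more CPM of the 33 insertions that the authors' deposited table lists for 2 or more fathers (rows, named by chromosome) in the 30 leaf libraries (columns, by family and plant number); a grey outline marks each family whose father is listed for the insertion. NE71 leaves carry 3 of the 33, the chromosome 3 insertion in the second row is listed for the ND66 father and empty in NE71, and 3 chromosome 7 insertions are outlined and empty in NE74.

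The insertions listed for 1 father alone were then counted in that father's progeny. The 23 sites of the ND66 father were present in 103 of 184 combinations of site and NE71 leaf (56.0%), against 200 of 357 for the 51 sites of the NE72 father (56.0%), 53.4% of combinations for the 19 of the NE73 father and 206 of 336 for the 42 of the NE74 father (61.3%). These shares were not tested against each other. The 23 were chosen as listed for no ND67 father, and none of them reached 1000 CPM in the 22 ND67 leaves. Their summed counts were 159 in NE72, 10 in NE73 and 61 in NE74, against 134626 in NE71. The most frequent was chr6:91860770-91860778, present in 7 of 8 NE71 leaves at 6487 to 8684 CPM (mean 7451 ± 819, SD), with plant 8 at 0 counts. Insertions at chr1:109888325-109888333 (8353 ± 818 CPM, SD), chr6:72655180-72655188 (8119 ± 574 CPM, SD), chr3:233675217-233675225 (5825 ± 800.1 CPM, SD) and chr5:2362942-2362950 (3415 ± 1168 CPM, SD) were each present in 6 of 8 NE71 leaves.

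At 1000 or more CPM, the 30 leaves together held 1044 distinct sites besides those of the Mu-inactive parent. Of these, 184 (17.6%) were in leaves of NE71 and in no ND67 leaf, 854 (81.8%) were in ND67 leaves and in no NE71 leaf, and 6 (0.575%) were in both. In comparison 34 sites (3.26%) were in leaves of 2 or more ND67 families. By family, 184 of the 190 NE71 sites were found in no other family (96.8%), as were 398 of 413 in NE72 (96.4%), 100 of 135 in NE73 (74.07%) and 326 of 354 in NE74 (92.1%). The private share of NE71 lay closest to that of NE72, and NE73 had the lowest of the 4 families.

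The 6 sites found in both rows were the 3 listed insertions on chromosomes 6 and 9 above and 3 sites that the authors' deposited table does not list. The unlisted sites lie at chr1:18957402-18957410, chr8:44857168-44858977 and chr8:160333759-160333767. They were counted in 63 to 64 of the 64 libraries of the series, and their carriers in leaf stood between 1037 and 3280 CPM, and each was also counted below the limit for presence in other leaves. The chromosome 8 site of 1810 bp was present in 7 of 8 NE71, 2 of 7 NE72, 6 of 7 NE73 and 4 of 8 NE74 leaves, and the values of the other leaves reached 896 CPM. The sharing values below are also given without them.

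Sharing between single leaves was measured by the Jaccard index, the sites present in both leaves as a percentage of those present in either, without sites of the Mu-inactive parent and without sites in all 30 leaves. Leaves of the same family shared 16.6% on average in NE71 (10.4 sites), 13.8% in NE72 (21.4 sites), 27.7% in NE73 (18.1 sites) and 18.8% in NE74 (24.5 sites). Between families, NE71 leaves shared 0.266% with NE72 (0.321 sites), 3.80% with NE73 (2.86 sites) and 0.590% with NE74 (0.625 sites). Among the ND67 families, NE72 shared 2.07% with NE73 (2.65 sites) and 1.12% with NE74 (1.84 sites), and NE73 shared 8.31% with NE74 (9.07 sites). The values span single pairs of leaves with 0 shared sites, as in NE71 with NE72, to a pair of NE73 and NE74 leaves with 22.

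The mean index was 3.83% between ND67 families and 1.55% between NE71 and the ND67 families, a difference of 2.28 percentage points, with an SD of 3.91 over the 3 ND67 pairs. By the index, the order of the pairs did not follow the rows. NE71 with NE73 stood above NE72 with NE73 and above NE72 with NE74, which are pairs within row 67. With the 3 unlisted sites and all other unlisted sites left out, NE71 with NE73 had 1.78%, between NE72 with NE73 (1.90%) and NE72 with NE74 (1.05%), NE73 with NE74 had 7.96%, and NE71 shared 0 such sites with NE72 or NE74. The difference between the rows was then 3.04 points. In mean number of listed sites shared, NE71 with NE73 (1.25) stood below every pair of ND67 families. These shared 2.35 (NE72 with NE73), 1.70 (NE72 with NE74) and 8.43 (NE73 with NE74).

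The difference with unlisted sites kept rested largely on the pair of NE73 and NE74. It was 0.0348 points without NE74, 0.692 without NE73 and 6.12 without NE72. Leaving out a family was not repeated for listed sites alone, where NE71 shared 0 sites with NE72 and NE74. The difference turned to -2.38 points with the sites of the Mu-inactive parent kept. All families carry these sites, and they form a larger share of the smaller site sets.

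**Figure D2:**
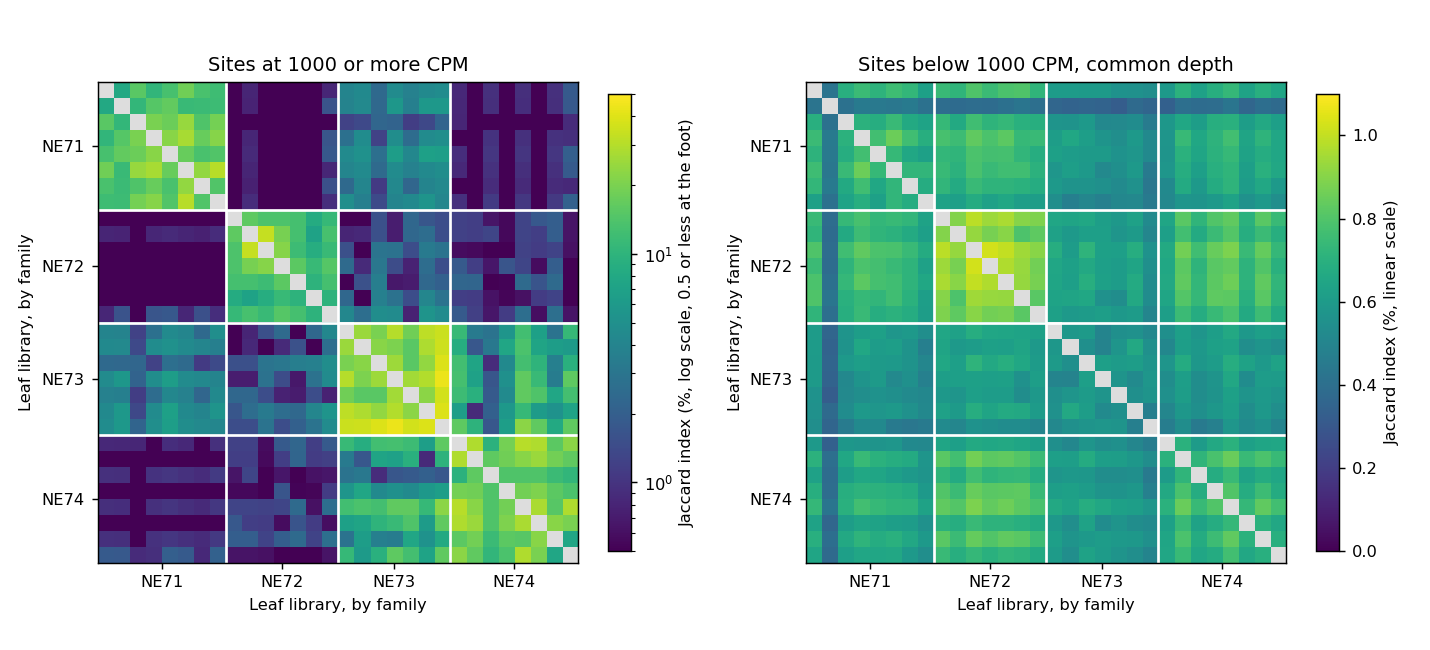
Jaccard index between the 30 leaf libraries, as a colour for each pair, for sites at 1000 or more CPM (left, log colour scale) and for sites below 1000 CPM at the common depth of 25037 counts (right, linear colour scale); white lines separate families and the diagonal is grey. On the left the blocks within a family stand out and NE73 with NE74 is the brightest block between families (mean 8.31%); on the right the brightest block between families is NE72 with NE74 (mean 0.752%), and NE71 plant 2 forms a darker line.

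Insertion load, the number of sites at 1000 or more CPM in a leaf, was then compared. NE71 leaves had 56 to 76 sites with a median of 68.5 (mean 67.38 ± 6.63, SD, n = 8). NE72 leaves had 115 to 128 with a median of 117 (mean 119.9 ± 4.85, SD, n = 7). NE73 leaves had 61 to 82 with a median of 74 (mean 72 ± 8.31, SD, n = 7), and NE74 leaves had 97 to 125 with a median of 105.5 (mean 107.6 ± 10.1, SD, n = 8). All NE72 and NE74 leaves lay above the highest NE71 leaf, whereas NE73 and NE71 overlapped.

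Load in NE71 differed from that in NE72 by -52.5 sites (95% interval -59.1 to -46; exact two-sided permutation over plants, Benjamini-Hochberg adjusted over 18 pair tests, p = 0.000559). Against NE74 the difference was -40.2 sites (interval -49.5 to -31; exact permutation, adjusted p = 0.000559). Against NE73 it was -4.62 sites with an interval of -13 to 3.84 (exact permutation, adjusted p = 0.307), so no difference was detected, and the interval reaches to 13 fewer sites in NE71. The p-values measure the spread between plants of these 4 families and do not carry over to other fathers. Between the rows the difference was -32.5 sites from the mean of the 3 ND67 families, which was 99.8 ± 24.9 (SD over 3 families; exact permutation over families, p = 0.5).

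Loads also differed within row 67. NE72 exceeded NE73 by 47.9 sites (exact permutation, adjusted p = 0.00175 over 18 tests among ND67 families) and NE73 differed from NE74 by -35.6 sites (exact permutation, adjusted p = 0.00175).

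**Figure D3:**
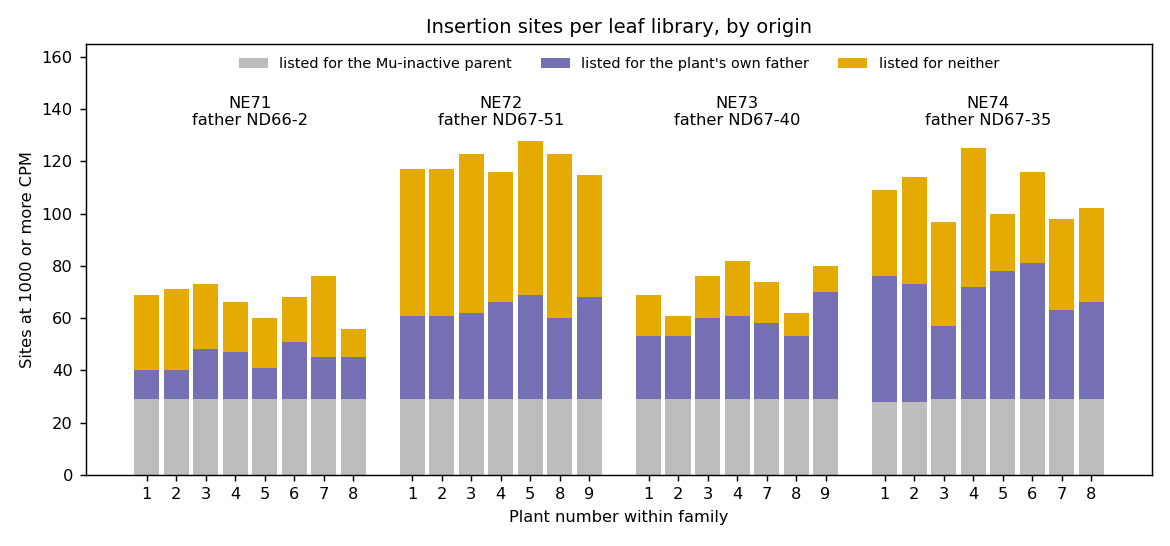
Sites at 1000 or more CPM in each of the 30 leaf libraries (bars, by family and plant number), stacked by origin: listed for the Mu-inactive parent (grey), listed for the plant's own father and not for the Mu-inactive parent (purple), and listed for neither (yellow). The grey part is 28 or 29 in every leaf, the purple part is 11 to 22 in NE71 and 24 or more in every other leaf, and the yellow part is lowest on average in NE73 (13.7).

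The load was divided by origin. The Mu-inactive parent's sites were present in near equal number: 29 in each leaf except NE74 plants 1 and 2, which had 28. Sites inherited from the father, those listed for the plant's own father in the authors' deposited table and not for the Mu-inactive parent, numbered 11 to 22 in NE71 (median 16, mean 15.6 ± 4.03, SD, n = 8). They numbered 31 to 40 in NE72 (median 33, mean 34.9 ± 3.72, SD, n = 7), 24 to 41 in NE73 (median 29, mean 29.3 ± 6.21, SD, n = 7) and 28 to 52 in NE74 (median 44, mean 42 ± 8.28, SD, n = 8). Every ND67 leaf lay above the highest NE71 leaf.

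NE71 differed in inherited sites from NE72 by -19.2 (interval -23.6 to -14.9; exact permutation, adjusted p = 0.000559), from NE73 by -13.7 (interval -19.5 to -8; exact permutation, adjusted p = 0.000699) and from NE74 by -26.4 (interval -33.3 to -19.3; exact permutation, adjusted p = 0.000559). The order followed the fathers' own totals, of which 27 in the ND66 father is the lowest. Over fathers, the difference of NE71 from the ND67 families was -19.8, at the smallest p this design allows (exact permutation over families, p = 0.25). Of the 6 measures compared, inherited sites alone separated all ND67 leaves from all NE71 leaves. A leaf's number is bounded by its father's list, 27 sites for NE71 and 64, 51 and 71 for NE72, NE73 and NE74. The separation is therefore not a result apart from those totals.

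The share of the inherited sites that another father also carried was 19.0% ± 6.77 in NE71 and 17.97% ± 3.27 in NE72, against 65.1% ± 4.22 in NE73 and 37.2% ± 11.3 in NE74 (SD over plants). The level of an inherited site was also set against the sites of the Mu-inactive parent in the same leaf, without a test. Its median was 48.4% ± 3.39 of theirs in NE71 leaves, 53.4% ± 2.33 in NE72, 51.9% ± 6.13 in NE73 and 54.9% ± 2.16 in NE74 (SD over plants), and 1 NE71 leaf, at 54.3%, reached the range of the NE74 leaves (52.3% to 59.2%). In CPM the median inherited site stood at 8309 ± 628 in NE71 leaves, 4666 ± 504 in NE72, 8805 ± 1028 in NE73 and 6044 ± 554 in NE74. A fixed CPM limit is thus a different fraction of an inherited site in each family. With the limit set at 10% of the level of the Mu-inactive parent's sites in each leaf, the load differences were -57.2 against NE72, -6.16 against NE73 and -43.1 against NE74.

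Sites listed for neither parent made up the rest of the load, and here the families were ordered otherwise. NE71 leaves had 11 to 31 such sites (median 22, mean 22.8 ± 7.36, SD, n = 8). NE72 leaves had 47 to 63 (median 56, mean 56 ± 5.77, SD, n = 7), NE73 leaves 8 to 21 (median 16, mean 13.7 ± 4.79, SD, n = 7) and NE74 leaves 22 to 53 (median 35.5, mean 36.9 ± 8.71, SD, n = 8). NE71 lay between NE73 and the other ND67 families.

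NE71 had fewer of these sites than NE72, by -33.2 (interval -40.8 to -25.7; exact permutation, adjusted p = 0.000559), and fewer than NE74, by -14.1 (interval -22.8 to -5.50; exact permutation, adjusted p = 0.00715). It had 9.04 more than NE73 (interval 1.87 to 16; exact permutation, adjusted p = 0.0344). The call against NE73 was lost at 2000 CPM (7.70 sites, adjusted p = 0.0676), with the limit relative to the Mu-inactive parent's sites (7.50 sites, adjusted p = 0.0737), with the authors' deposited table of calls (7.55 sites, adjusted p = 0.0879) and without NE71 plant 2 (7.86 sites, adjusted p = 0.0533). Between the rows the difference was -12.8 sites (exact permutation over families, p = 0.75), and it was -2.54 without NE72 and -23.7 without NE73.

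Most of these sites were found in 1 plant. Of the NE71 sites in no other family and not listed for the father, 158 of 161 were present in 1 leaf and 3 in more than 1. In NE72 the counts were 311 and 36 of 347, in NE73 81 and 0 of 81, and in NE74 279 and 5 of 284. NE72 plants 2, 3 and 4 had 27, 32 and 19 sites listed for neither parent that a sibling also had. The other NE72 plants had 0 or 1. The permutation over plants treats these leaves as separate, although for such sites they are not fully independent. The 3 NE71 sites present in several leaves were chr5:218579226-218579234 in plants 1, 3 and 5 (8211 to 10743 CPM), chr6:58074985-58074993 in plants 2 and 8 (8944 and 14112 CPM) and chr10:5266573-5266581 in plants 6 and 7 (5837 and 6472 CPM). All 3 had 0 counts in the library of the ND66 father. The median level of sites listed for neither parent was 93.5% ± 10.47 of that of inherited sites in NE71 leaves, 99.9% ± 9.98 in NE72, 75.3% ± 26.2 in NE73 and 92.7% ± 6.23 in NE74 (SD over plants).

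The low-level sites, those below 1000 CPM, were compared at a common depth of 25037 counts, the total of the shallowest leaf (NE72 plant 8), by the exact expectation over all draws. At that depth 1 count is 39.9 CPM. The depth is a total over all sites. Those of the Mu-inactive parent held 48.4% ± 5.19 of the counts of NE71 leaves and 48.0% ± 3.85 for NE73 (SD over plants). They held less of the counts of NE72 leaves (24.4% ± 2.40) and NE74 leaves (30.6% ± 3.20). Low-level sites relative to the counts of the Mu-inactive parent's sites were not tested, so the differences below hold per total counts only. Before thinning, NE71 leaves held 13139 to 44790 such sites, NE72 leaves 7621 to 133813, NE73 leaves 4751 to 35933 and NE74 leaves 34213 to 77181, an order that depth enters.

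At the common depth NE71 leaves had 2050 to 6236 expected low-level sites (median 5084, mean 4886 ± 1300, SD, n = 8). NE72 leaves had 6382 to 8798 (median 7755, mean 7587 ± 822, SD, n = 7), NE73 leaves 3184 to 4416 (median 4027, mean 3930 ± 411, SD, n = 7) and NE74 leaves 4378 to 6879 (median 5621, mean 5601 ± 939, SD, n = 8). Every NE72 leaf was above every NE71 leaf. NE71 plant 2 stood far below the other 7 NE71 leaves, at 2050 sites against 4266 to 6236.

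NE71 had fewer low-level sites than NE72, by -2701 (interval -3955 to -1545; exact permutation, adjusted p = 0.000699). Against NE74 the difference was -715 sites with an interval of -1943 to 444 (exact permutation, adjusted p = 0.300), and against NE73 it was 956 sites with an interval of -156 to 1926 (exact permutation, adjusted p = 0.119). These tests do not show how the families compare relative to the Mu-inactive parent's sites. Without NE71 plant 2 the NE71 mean was 5291 ± 662 (SD, n = 7) and the difference from NE73 was 1361 sites (exact permutation, adjusted p = 0.00210). The same omission took the difference from NE74 to -310 sites (exact permutation, adjusted p = 0.564). Between the rows the difference was -820 sites (exact permutation over families, p = 0.75), and it was -415 without NE71 plant 2, 120.3 without NE72 and -1708 without NE73.

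The share of leaf counts at low-level sites gave the same order. This is not a separate result, since on family average 89.6% to 91.0% of sites at the common depth had exactly 1 count. The share of counts was 9.76% to 29.7% in NE71 (median 24.5%, mean 23.4% ± 6.12, SD, n = 8) and 30.7% to 39.7% in NE72 (median 35.4%, mean 35.0% ± 3.18, SD, n = 7). It was 14.3% to 20.4% in NE73 (median 18.1%, mean 18.1% ± 2.06, SD, n = 7) and 20.1% to 32.5% in NE74 (median 26.3%, mean 26.1% ± 4.53, SD, n = 8). The 95% Wilson interval of a single leaf's share is at most 0.592 percentage points to either side, so counting error is small beside the spread between plants. The shares are of all counts, and low-level counts relative to the Mu-inactive parent's sites were not tested.

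In percentage points, NE71 differed from NE72 by -11.6 (interval -17.2 to -6.54; exact permutation, adjusted p = 0.000699), from NE73 by 5.32 (interval 0.0309 to 9.88; exact permutation, adjusted p = 0.0737) and from NE74 by -2.69 (interval -8.46 to 2.76; exact permutation, adjusted p = 0.376). Without NE71 plant 2 the difference was 7.27 points from NE73 (exact permutation, adjusted p = 0.00117) and -0.746 points from NE74 (exact permutation, adjusted p = 0.750). The ND67 families also differed among themselves: NE72 exceeded NE73 by 16.9 points (exact permutation, adjusted p = 0.00175) and NE74 by 8.88 points (exact permutation, adjusted p = 0.00280), and the difference of NE73 from NE74 was -8.01 points (exact permutation, adjusted p = 0.00218). Between the rows the difference was -2.98 points (exact permutation over families, p = 0.75), and it was -1.03 without NE71 plant 2, 1.32 without NE72 and -7.13 without NE73.

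**Figure D4:**
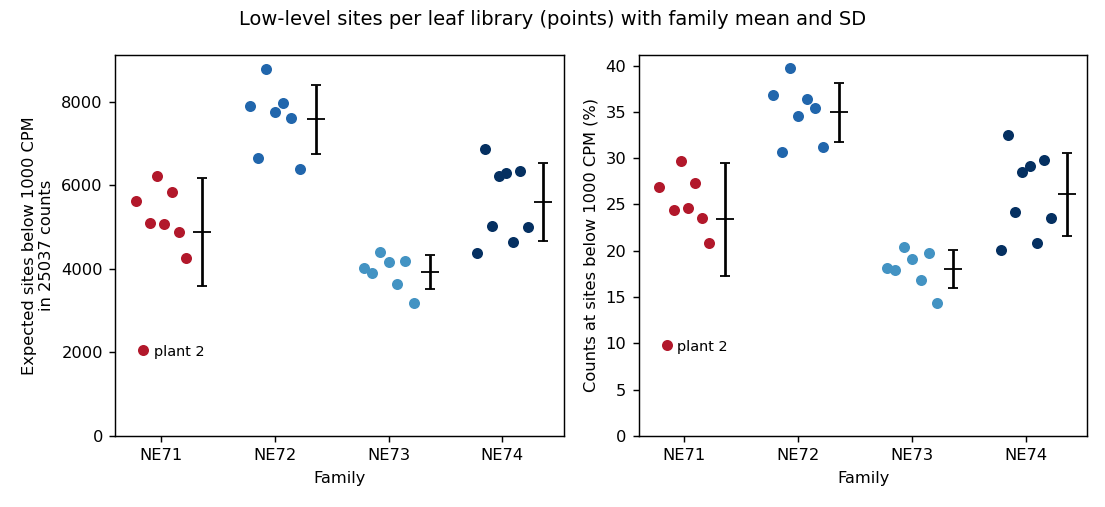
Expected number of sites below 1000 CPM in 25037 counts (left) and percentage of counts at such sites (right) for each leaf library (points), with the mean and SD of each family (black). NE72 lies above all NE71 leaves in both panels, NE73 is lowest in mean, and NE71 plant 2 lies below every other leaf at 2050 sites and 9.76%.

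The spectrum of counts per site was set out by the number of counts. At the common depth, sites with exactly 1 count numbered 4453 ± 1205 in NE71 leaves, 6970 ± 829.1 in NE72, 3644 ± 376 in NE73 and 5129 ± 837 in NE74 (SD over plants). Sites with 2 counts numbered 259.8 ± 59.1, 414.4 ± 48.6, 180.4 ± 30.7 and 312.7 ± 84.8 in the same order, and sites with 6 to 25 counts 43.2 ± 12.2, 40.8 ± 10.0, 25.5 ± 7.91 and 35.1 ± 9.74. In this middle range NE71 had the highest mean, within 1 SD of NE72 and NE74, although NE72 had more sites with 1 count. The range is fixed in counts at the common depth, whereas the median inherited site stood at 8309 CPM in NE71 and 4666 CPM in NE72. It is thus a different fraction of an inherited site in each family.

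The share of sites with exactly 1 count was 87.3% to 91.2% in NE71 (median 89.7%, mean 89.6% ± 1.26, SD, n = 8), and the other families averaged 90.3% ± 1.51 in NE72, 91.0% ± 0.763 in NE73 and 89.9% ± 1.01 in NE74. NE71 differed from NE73 by -1.40 percentage points (interval -2.59 to -0.227; exact permutation, adjusted p = 0.0361), from NE72 by -0.695 (interval -2.24 to 0.854; exact permutation, adjusted p = 0.376) and from NE74 by -0.228 (interval -1.47 to 0.987; exact permutation, adjusted p = 0.696). Between the rows the difference was -0.774 points (exact permutation over families, p = 0.5), and it was -0.443 without NE71 plant 2 and -0.462 without NE73. The difference from NE73 was -1.07 without NE71 plant 2 (exact permutation, adjusted p = 0.0533) and -1.50 at a common depth of 100000 counts (exact permutation, adjusted p = 0.429), which leaves out the shallower leaves.

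**Figure D5:**
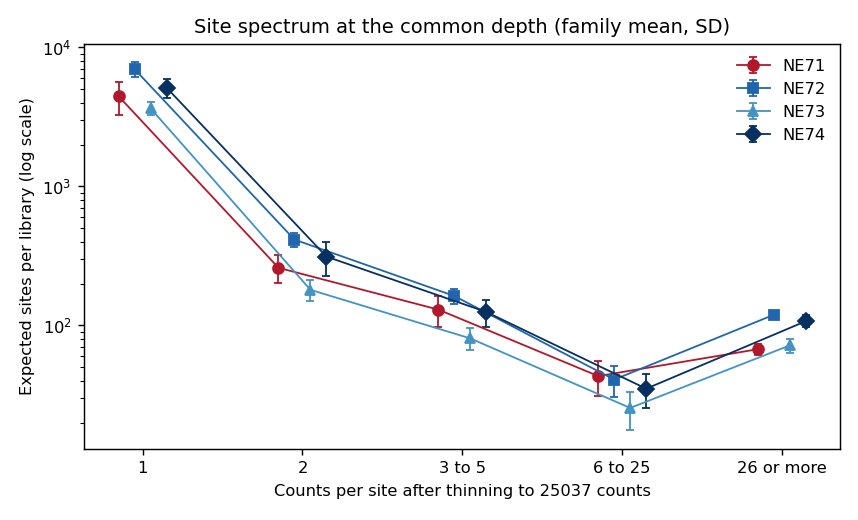
Expected number of sites per leaf library (log scale) by the number of counts at the site after thinning to 25037 counts, as family means with SD over plants. The NE72 curve starts above that of NE71 at sites with 1 count (6970 against 4453) and meets it at sites with 6 to 25 (40.8 against 43.2), and all curves rise at 26 or more counts, where NE72 and NE74 stand above NE71 and NE73.

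The sharing of low-level sites ran from 0.530% to 0.752% between families and was not tested. The index at the common depth averaged 0.641% between NE71 leaves, 0.912% between NE72 leaves, 0.562% between NE73 leaves and 0.711% between NE74 leaves. Between NE71 and NE72, NE73 and NE74 it averaged 0.685%, 0.530% and 0.613%, and among ND67 families 0.613% (NE72 with NE73), 0.752% (NE72 with NE74) and 0.577% (NE73 with NE74). The pair of NE73 and NE74, which had the highest sharing between families at 1000 or more CPM, was the second lowest of the 6 here. Within families the index ran in the order of expected low-level sites, highest in NE72 (mean 7587) and lowest in NE73 (mean 3930). Between families, NE72 was likewise in the highest pair and NE73 in the lowest. Whether the number of sites sets this order was not tested, so the order is not read as relatedness. The row-67 mean exceeded the mean with NE71 by 0.0383 percentage points, by 0.00556 without NE71 plant 2, by 0.00602 without NE72, by 0.103 without NE73, by 0.00583 without NE74 and by 0.117 with sites within 10 bp merged.

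Low-level sites near strong ones were measured as part of this spectrum. Between 1.07% and 4.09% of a leaf's low-level sites lay within 1000 bp of a site at 1000 or more CPM in the same leaf, with the highest value in NE71 plant 2. Of 187498 sites counted in NE71 leaves and below 1000 CPM in all 30 leaves, 120931 were counted in no ND67 leaf (64.5%), which is 13.4% of such sites in any leaf. The corresponding shares found in no other family were 74.77% in NE72, 60.94% in NE73 and 71.58% in NE74, and the families differ in summed leaf counts, from 1003815 in NE73 to 2957334 in NE74. Of the 120931 sites, 2512 were counted in 2 or more NE71 leaves and 14 in 6 or more. All 14 lay at most 75 bp from a site at 1000 or more CPM. The 4 that were counted in 7 leaves lay beside the ND66 father's insertion at chr6:91860770-91860778, such as chr6:91860774-91860782, which was counted in 7 NE71 leaves at 11.2 to 26.9 CPM and in no ND67 leaf. Not all 4 followed the carriers of that insertion. The site at chr6:91860808-91860816 was counted in plant 8, which had 0 counts at the insertion, and not in plant 2, which carried it. With all low-level sites within 1000 bp of a strong site of the same leaf left out, the difference in sharing between the rows was 0.0354 percentage points.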

How the data were processed

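The authors deposited raw counts for 1091553 insertion sites in 64 libraries and a second table that, per the file headers, marks 1058 transmitted insertions as 0 or 1 in the Mu-inactive parent and in every plant and father. Bowtie2 is named in the submitters' processing notes without a version. The genome build, the criteria of the calls, and the unit counted (reads or molecules) are not given in the sources used here. All 1058 listed sites matched the count table, and 0 columns were left unused.

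CPM, presence at 1000 CPM, Jaccard indices and expected values at 25037 counts (exact hypergeometric expectation, no random draws) were computed in Python 3.11.15 with numpy 2.4.6, pandas 2.3.3 and scipy 1.17.1, and checked on simulated data. Families were compared by exact two-sided permutation over plants with Benjamini-Hochberg adjustment over 18 tests (6 measures, 3 families) and intervals from inverting that test. Rows were compared by exact permutation over 4 family means. The Wilson intervals of single leaves and the 3-count floors cover counting error only, since amplified reads are not independent molecules.

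Named sites followed a rule: insertions shared by fathers in order of CPM, insertions of the ND66 father in order of NE71 carriers, and recurrent NE71 sites. The 3 unlisted sites were named after their values were seen. The plants, measures and rules were chosen with earlier results of these data known. Alternatives were other presence limits, father sites from counts, merged or 9 bp sites, other depths, carry-over filters, left-out families and libraries, and plant number as a replicate block. Leaving out NE72 plant 8, low-level neighbours and unlisted sites was added after seeing the data.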

Additional observations from a re-analysis of the deposited data

Results flagged for a closer look

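NE71 plant 2 stood apart from the other 7 NE71 leaves in both low-level measures, by Dixon's ratio of its gap to the group's range. These measures overlap closely and are not separate results. In plant 2 the expected number of low-level sites was 2050, against 4266 to 6236 in the others. Its share of counts at low-level sites was 9.76% (95% Wilson interval 9.64 to 9.88), against 20.8% to 29.7%. Its depth of 235119 counts and its load of 71 sites lay within the range of the family. The highest and the lowest sample were examined in 24 sets of samples, and chance would give about 1.2 such values.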

How the results depend on the processing

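Over all results and alternatives, 238 values kept their direction and their side of the threshold or moved little, 14 lost a call, 2 gained one, 7 changed sign and 1 moved. Without the replicate block, the load difference was between -57.2 and -48.4 against NE72 and between -43.4 and -38.8 against NE74, and inherited sites kept their calls against all 3 families. The difference from NE73 in sites listed for neither parent lost its call at 2000 CPM (7.70), at 10% of the Mu-inactive parent's sites (7.50), with the authors' calls (7.55) and without NE71 plant 2 (7.86). Without that plant, low-level sites (1361) and their count share (7.27) gained calls against NE73, and the share of sites with 1 count was -1.07 against NE73, its call lost, and 0.104 against NE74, its sign changed. At 100000 counts that share differed by 0.573 from NE72, -1.50 from NE73, 1.17 from NE74 and 0.0795 between rows, and low-level sites differed by -3391 between rows; shallower leaves are left out there. Without NE72 the rows differed by 120.3 low-level sites and 1.32 percentage points of count share. With the Mu-inactive parent's sites and the sites in all 30 leaves kept, the Jaccard difference between rows was -2.38 points. Plant numbers did not pair the plants: same-numbered plants deviated together with correlations from -0.541 to 0.828, over 0.1 in 8 of 18 sets with 6 to 8 shared numbers. With plant number as a replicate block, 6 shared numbers cannot give an exact sign-flip p below 0.0312, and an adjusted p of 0.0563 or more took the call from these differences: load against NE72 -54.8, inherited sites -19.7 and -12.2 against NE72 and NE73, sites of neither parent -35.2 and 10 (adjusted p = 0.141), low-level sites -3062 and their count share -12.9 against NE72, and the share with 1 count -1.56 against NE73. Without NE72 plant 8, the shallowest leaf, the differences from NE72 were -52.0 in load, -19.9 in inherited sites, -32.1 in sites of neither parent, -2695 in low-level sites and -11.5 points in their count share. The cause of the other changes was not tested. Depth limits the shallowest leaf, where 3 counts are 119.8 CPM, and the row comparison is limited by its 4 fathers.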
